A study of Apis mellifera with 9 samples.

Results

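The features described here are the 100 of 15314 with the highest mean read level in honey bee (Apis mellifera) larvae on the control diet. They were chosen from the deposited read counts: each count was multiplied by 1e+06 and divided by the library's sum over all features, which gives the level in CPM, and features were ranked by their mean CPM over the 3 control libraries. Rank 1 is the most abundant. The level in control is therefore what chose them and is given as a description.

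Newly hatched larvae were grafted into well plates and fed for 3 days on a diet of 50% royal jelly and 50% of a sugar and yeast extract solution. The diet held no quercetin (control), 0.1 mM quercetin or 0.25 mM quercetin, with 3 replications of 10 to 12 larvae per diet and 1 library from each. Royal jelly and the sugars are thus shared by all diets. The source label is whole larvae, while the extraction protocol names midguts, so the tissue is not settled. Whether the replications came from separate colonies is not stated, so p-values here reflect the spread among the sampled libraries, which may be technical.

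Quercetin is a flavonol that bees take in with pollen, nectar and honey, and bees break it down with cytochrome P450 enzymes. In a fast-growing insect larva, a few kinds of transcript make up much of the messenger RNA, such as those for storage proteins, digestive enzymes, cuticle and the protein synthesis machinery. Which of these kinds the 100 features belong to could not be examined. The table lists identifiers of the form GB and a number, and 0 of 15314 matched the 12398 genes of the reference table used here. The features are therefore called by rank, no tissue marker could be read, and no sequence is shown. In bulk RNA, fewer cells of a type and less RNA per cell cannot be told apart. Reads were not divided by transcript length, so a rank compares reads, not molecules, between features.

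Libraries held between 34456449 and 42874091 reads on features, and the lowest count of any of the 100 features in any library was 5522 reads. All 100 passed the filter on low counts that kept 11508 features. Counts of replicate libraries were farther apart than sampling of reads gives: chi-square over degrees of freedom was 12.5 to 113.4 for pairs within a diet. The 3 columns of 0.25 mM carry the same heading and are called libraries a, b and c in table order, as names only. Library a stood apart: this quantity was 113.4 and 80.1 for its pairs with b and c, beside 22.2 for b with c.

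The control levels of the 100 features spanned a wide range with a steep top. Rank 1 had 80791, 81313 and 83029 CPM in the 3 controls, and rank 2 had 25625, 29000 and 31838 CPM. Rank 3 averaged 10894 CPM, rank 10 averaged 5236 CPM and rank 50 averaged 1843 CPM. Ranks 99 and 100, just inside the limit, averaged 1171 ± 43.8 and 1169 ± 106 CPM (SD, n = 3). The next pair, just outside, averaged 1163 ± 146 and 1156 ± 58.6 CPM. The limit thus falls within the spread of single features and marks no step in level.

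**Figure D1:**
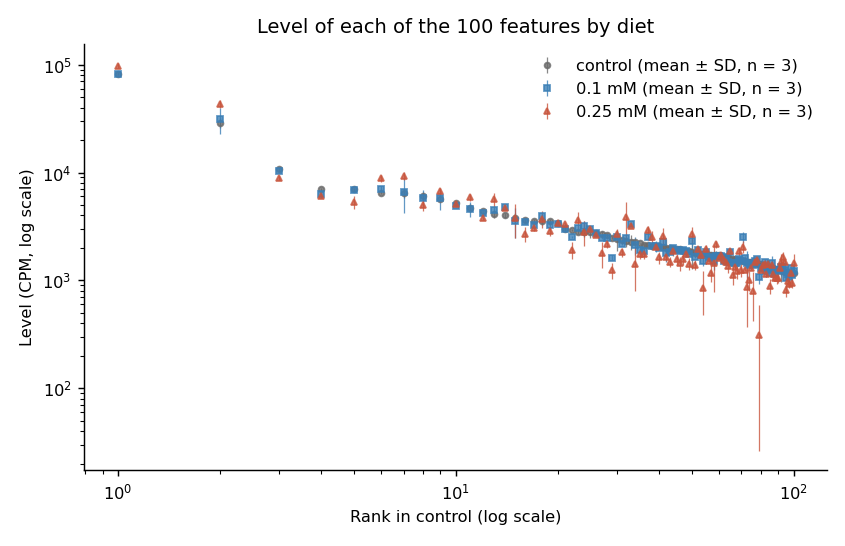
Level of each of the 100 features in CPM (vertical axis, log scale) against its rank in control (horizontal axis, log scale), as mean ± SD of 3 libraries per diet. Rank 1 lies far above the rest in all diets, and rank 79 at 0.25 mM is the lowest point, at 309 CPM.

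Replicates of control were close for most of these features, with a median coefficient of variation (SD over mean) of 4.37%, against 7.04% over all 11508 features. It was 4.8% at 0.1 mM and 9.56% at 0.25 mM, against 7.5% and 13%. More than 10% was found for 13 features in control, 23 at 0.1 mM and 48 at 0.25 mM. Over all 11508 features these numbers were 4055, 4318 and 7154. Library a was nearer to the control mean than both b and c in 72 of the 100, against 62.5% of all features tested.

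In control larvae the 100 features took 33.9%, 34.7% and 35% of all feature counts, a mean of 34.6% ± 0.594 (SD, n = 3). Rank 1 took 8.17% ± 0.117 and rank 2 took 2.88% ± 0.311. Ranks 1 to 10 together held 16.5% ± 0.522, ranks 1 to 20 held 20.4% ± 0.537, and ranks 21 to 100 held 14.2% ± 0.113. The next 100 features in rank held 8.87% ± 0.0806.

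At 0.25 mM the 100 features took a larger part of the counts, 37.4%, 36.1% and 37.1% in libraries a, b and c. The mean was 36.9% ± 0.673, or 2.34 percentage points above control, and no 0.25 mM library overlapped a control (two-sided exact permutation test, p = 0.1, the smallest p that 3 against 3 libraries allow). At 0.1 mM the 3 libraries held 36.4%, 35% and 33%, which enclosed all controls (difference 0.228 points, exact permutation test, p = 0.9). Between the doses the difference was 2.11 points and did not separate the libraries (exact permutation test, p = 0.2). The difference at 0.25 mM was larger than the SD of either diet, while the 0.1 mM replicates were spread over a wider range than the means of the 3 diets.

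**Figure D2:**
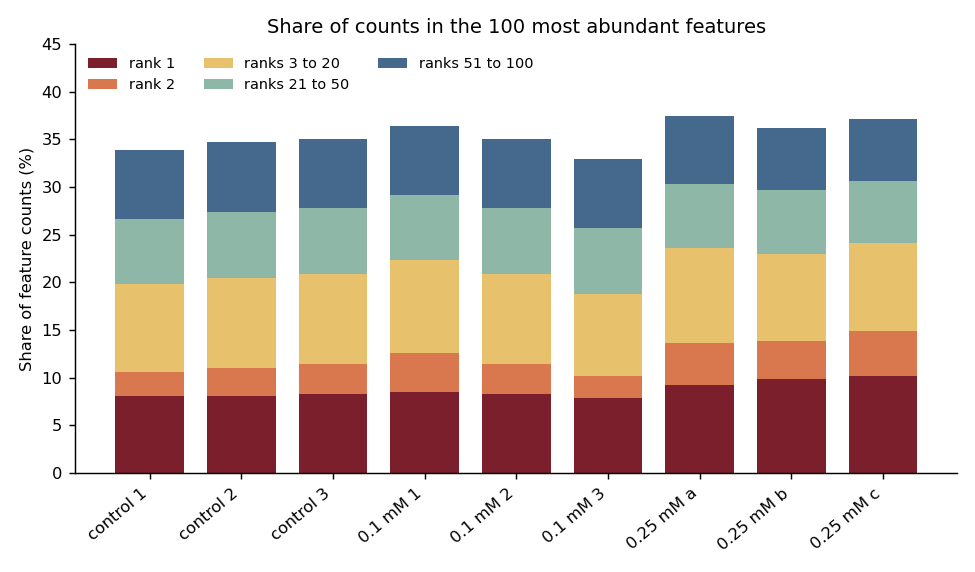
Share of all feature counts (percent, stacked bars from 0) taken by rank 1, rank 2, ranks 3 to 20, 21 to 50 and 51 to 100 in each library. Rank 1 takes 9.26% to 10.2% in the 0.25 mM libraries and 7.92% to 8.56% in the other 6, and ranks 51 to 100 take less in each 0.25 mM library than in any control.

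Ranks 1 and 2 gained more of the counts than the 100 features did as a whole. Rank 1 went from 8.17% ± 0.117 to 9.79% ± 0.494 of counts, and rank 2 from 2.88% ± 0.311 to 4.33% ± 0.387, which together is a gain of 3.07 points. Ranks 3 to 100 went from 23.5% ± 0.237 to 22.8% ± 0.859, a difference of -0.73 points with overlap between the diets (exact permutation test, p = 0.4). Once ranks 1 and 2 are taken out of the total, ranks 3 to 100 made up 26.4% ± 0.354 of what remained in control and 26.5% ± 0.88 at 0.25 mM, with 26.4% ± 0.944 at the lower dose (exact permutation test of 0.25 mM against control, p = 0.9). Feature by feature, 40 of the 100 had a higher mean share than in control and together gained 5.11 points, of which ranks 1 and 2 made up 60.1%, and 60 had a lower one and together came to -2.77 points. Without rank 1, the difference of the members' share at 0.25 mM was 0.719 points and the libraries overlapped (exact permutation test, p = 0.4).

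Among the remaining ranks, the lower bands took less of the counts at 0.25 mM. Ranks 3 to 20 held 9.33% ± 0.136 in control and 9.48% ± 0.431 at 0.25 mM (exact permutation test, p = 0.8). Ranks 21 to 50 held 6.87% ± 0.0268 and 6.63% ± 0.14, and ranks 51 to 100 held 7.3% ± 0.0945 and 6.66% ± 0.353. In each of these lower bands all 0.25 mM libraries lay below all controls (exact permutation test, p = 0.1 each, the smallest possible). At 0.1 mM the bands stood at 9.26% ± 0.596, 6.87% ± 0.00884 and 7.24% ± 0.0658. The next 100 features in rank, outside the set, also took less at 0.25 mM, 8.5% ± 0.12 against 8.87% ± 0.0806 in control. They held 8.67% ± 0.106 at 0.1 mM. Neither dose overlapped control there (exact permutation test, p = 0.1 each, the smallest possible). The lower share at 0.25 mM was thus not particular to the lower bands of the 100. A larger share of ranks 1 and 2 lowers the share of every other feature by itself, so the fold changes that follow use library sizes scaled by the trimmed mean of M-values (TMM), which trims features of extreme level or change.

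At 0.25 mM, 36 of the 100 features changed against control: 19 rose and 17 fell (edgeR quasi-likelihood test, adjusted p under 0.05 over all 11508 features). Over all features tested 35.6% were called, 17.1% as higher and 18.5% as lower, so the number called among the abundant features was that of the background. The controls that ranked the features are also 1 arm of this comparison. Ranking by the 0.1 mM libraries or by all 9 libraries gave 38 called each, 23 higher and 15 lower or 24 and 14. With total counts as library sizes and no scaling factors, 15 rose and 36 fell, beside 38% of all features called, and the median log2 fold change of all features was then -0.07.

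The count moved with single libraries, as it did over all features. Leaving out library a gave 66 called, leaving out b gave 12 and leaving out c gave 8, beside 56%, 13.6% and 9.61% of all features in these fits. Leaving out control replicate 1, 2 or 3 gave 21, 10 or 14, beside 23.3%, 12.1% and 16.5%. When b and c were both dropped, which was decided with the values known, 0 of the 100 were called (edgeR, 21 at an unadjusted p under 0.05), beside 0.702% of all features. Of the 36 calls, 7 were kept whichever of the 9 libraries was left out: ranks 6, 33, 37, 71, 93 and 94, which rose, and rank 29, which fell.

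Changes were mostly small. The log2 fold changes of the 100 features ran from -2.11 to 0.83 with a median of -0.08, beside a median of 0.01 over all features. Of the 36 called, 6 changed at least 1.5-fold and 1 at least 2-fold, or 6% and 1% of the 100, beside 14.2% and 3.48% of all features. The 95% interval lay within a 2-fold change up or down for 90 of the 100, within 1.5-fold for 64 and within 1.2-fold for 13. Over all features these shares were 78.8%, 48.1% and 11.5%. At an unadjusted p under 0.05 there were 54 of the 100, beside 48.1%.

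Called features were found at all levels. In ranks 1 to 20, 6 rose and 1 fell (30% and 5%). In ranks 21 to 50, 6 rose and 7 fell (20% and 23.3%), and in ranks 51 to 100, 7 rose and 9 fell (14% and 18%). Among the next 100 features, 16 rose and 20 fell. The shares over all features were 17.1% and 18.5%. These bands were compared as counts, with no test between them, so no trend with rank is read from them.

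**Figure D3:**
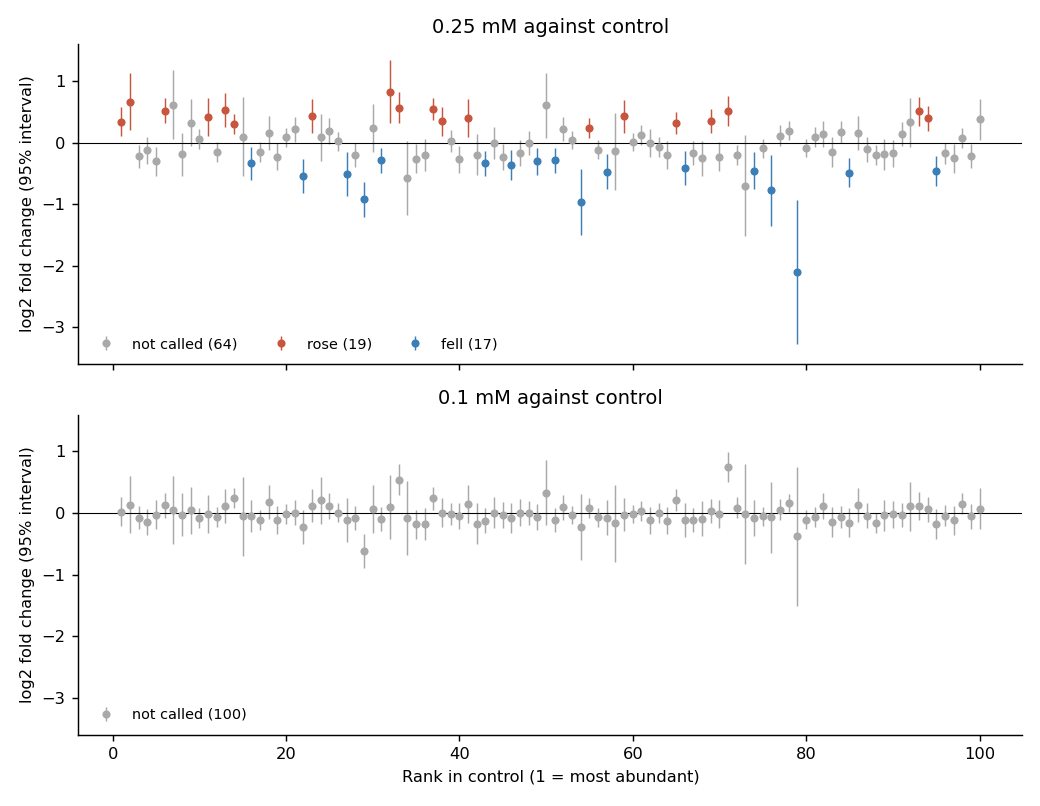
Log2 fold change against control of each of the 100 features (points, with 95% intervals as bars) by rank in control, at 0.25 mM (top) and 0.1 mM (bottom). At 0.25 mM 19 features rose (red), 17 fell (blue) and 64 were not called (grey), and at 0.1 mM all 100 were not called.

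Ranks 1 and 2 both rose. Rank 1 stood at 80791, 81313 and 83029 CPM in control, 85559, 83325 and 79241 CPM at 0.1 mM, and 92562, 98953 and 102279 CPM in libraries a, b and c of 0.25 mM. All libraries of 0.25 mM, a included, lay above all others, while the control and 0.1 mM libraries overlapped. Its log2 fold change at 0.25 mM was 0.34 ± 0.106 (± SE; edgeR, adjusted p = 0.0353). The call was lost in 6 of the 9 omissions of a library (each control, 0.1 mM replicate 2, and libraries b and c), with an adjusted p of 0.0672 to 0.112 and a log2 fold change of 0.32 to 0.35.

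Rank 2, GB44996-RA, had 25625, 29000 and 31838 CPM in control and 44213, 39078 and 46664 CPM at 0.25 mM. At 0.1 mM it had 39989, 31373 and 22783 CPM, so a single 0.1 mM library reached the 0.25 mM level and another lay below all controls. It rose at 0.25 mM by 0.66 ± 0.207 on the log2 scale, 1.58-fold (edgeR, adjusted p = 0.0347). The same 6 omissions as for rank 1 ended this call, with adjusted p between 0.0538 and 0.105 and log2 fold changes of 0.58 to 0.75.

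Ranks 3 to 10 were mixed. Rank 6, GB42053-RA, had 6298, 6576 and 6642 CPM in control, 7462, 6623 and 7160 CPM at 0.1 mM, and 8157, 8893 and 9406 CPM at 0.25 mM. The 0.25 mM libraries were above all others, and the rise of 0.51 ± 0.0911 on the log2 scale passed the test (edgeR, adjusted p = 0.00752) with any library left out (adjusted p at most 0.0367). Ranks 3, 4, 5, 7, 8, 9 and 10 were not called, with log2 fold changes of -0.22, -0.13, -0.31, 0.61, -0.19, 0.32 and 0.05. Rank 5 was at the threshold (edgeR, adjusted p = 0.0503) and rank 7 had a change nearly as large as rank 2 with a wider interval (adjusted p = 0.0804). Rank 10 changed sign with no scaling factors, and ranks 8 and 10 did so when libraries b and c were both left out.

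The other 16 features that rose lay between ranks 11 and 94. The largest value was that of rank 32, with 2572, 2324 and 2022 CPM in control, 2310, 2583 and 2494 CPM at 0.1 mM, and 2296, 4891 and 4477 CPM in libraries a, b and c. Library a was within the control range, and b and c were above every other library. The log2 fold change was 0.83 ± 0.23 (edgeR, adjusted p = 0.0241), and the call was lost without control replicate 2 or 3 or library b or c (adjusted p = 0.072 to 0.0867, log2 fold changes of 0.65 to 0.84).

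Rank 33, GB40021-RA, had 1959, 2202 and 2681 CPM in control and 3221, 3190 and 3229 CPM at 0.25 mM. Here libraries a, b and c were alike, and their coefficient of variation was 0.648%. The log2 fold change was 0.57 ± 0.113 (edgeR, adjusted p = 0.00979), and the call was kept with any library left out. Rank 37 rose by 0.55 ± 0.0825 (edgeR, adjusted p = 0.00623), rank 93 by 0.5 ± 0.102 (adjusted p = 0.0102) and rank 94 by 0.39 ± 0.0906 (adjusted p = 0.0144), and each kept its call with any library left out. Rank 13, with 4539, 3941 and 3901 CPM in control and 5880, 6347 and 4731 CPM at 0.25 mM, rose by 0.53 ± 0.125 (edgeR, adjusted p = 0.0151). The smallest rise that was called was 0.24, at rank 55.

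Among the 17 features that fell, rank 79 stood out by size. GB48512-RA had 1220, 1462 and 1559 CPM in control, 1211, 1106 and 924 CPM at 0.1 mM, and 636, 135 and 157 CPM in libraries a, b and c. No 0.1 mM library was above any control, and all 0.25 mM libraries were below the 0.1 mM libraries. The log2 fold change was -2.11 ± 0.521 (edgeR, adjusted p = 0.017), a fall to 0.232 of the control level, with a 95% interval of -3.28 to -0.94. Leaving out library a gave -3.19, and leaving out b or c gave -1.73 or -1.78. The call was lost without control replicate 2 or 3 or library c (adjusted p = 0.0501 to 0.0642).

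Rank 54, GB52202-RA, had 1835, 1711 and 1696 CPM in control, 1368, 1500 and 1621 CPM at 0.1 mM, and 1268, 635 and 630 CPM at 0.25 mM. Library a lay just below the lowest 0.1 mM library, while b and c were far lower. The log2 fold change was -0.97 ± 0.241 (edgeR, adjusted p = 0.0172), and -1.38 without library a. Without control replicate 2, library b or library c the call was lost (adjusted p = 0.0529 to 0.0684, log2 fold changes of -0.98 to -0.78). Rank 76 had the same split, with 1461, 1434 and 1463 CPM in control and 1245, 579 and 583 CPM in libraries a, b and c. Its log2 fold change of -0.78 ± 0.259 (edgeR, adjusted p = 0.0432) lost its call in 8 of the 9 omissions, every one but that of library a (adjusted p = 0.0594 to 0.151). Its log2 fold change was -1.24 without library a and at its smallest -0.57 in these omissions.

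Rank 29, GB40976-RA, had 2471, 2565 and 2415 CPM in control, 1697, 1635 and 1522 CPM at 0.1 mM and 1477, 1184 and 1066 CPM at 0.25 mM, and the 3 diets did not overlap. Its log2 fold change at 0.25 mM was -0.92 ± 0.125 (edgeR, adjusted p = 0.00512), with an adjusted p of at most 0.0321 whichever library was left out. Rank 22 came next, with 2862, 2930 and 2988 CPM in control, 2523, 2542 and 2440 CPM at 0.1 mM and 2300, 1693 and 1727 CPM at 0.25 mM, and again no overlap between diets (log2 fold change -0.54 ± 0.123, edgeR, adjusted p = 0.0137). With rank 22, the other 13 features that fell had log2 fold changes of -0.54 to -0.29, and in all 17 the 3 libraries of 0.25 mM lay below the 3 controls in CPM. Of the 19 that rose, 14 had all libraries of 0.25 mM above all controls. Over all 100 features, called or not, 18 were higher and 47 lower without overlap in CPM, beside 14.4% and 33.9% of all features. CPM does not carry the TMM factors, which were 0.957 to 0.978 at 0.25 mM and 1.01 to 1.03 in control. Levels at 0.25 mM therefore read lower against control in CPM than after scaling. After scaling, 46 of the 100 had a log2 fold change above 0 and 54 below, beside 5829 and 5679 of all features.

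**Figure D4:**
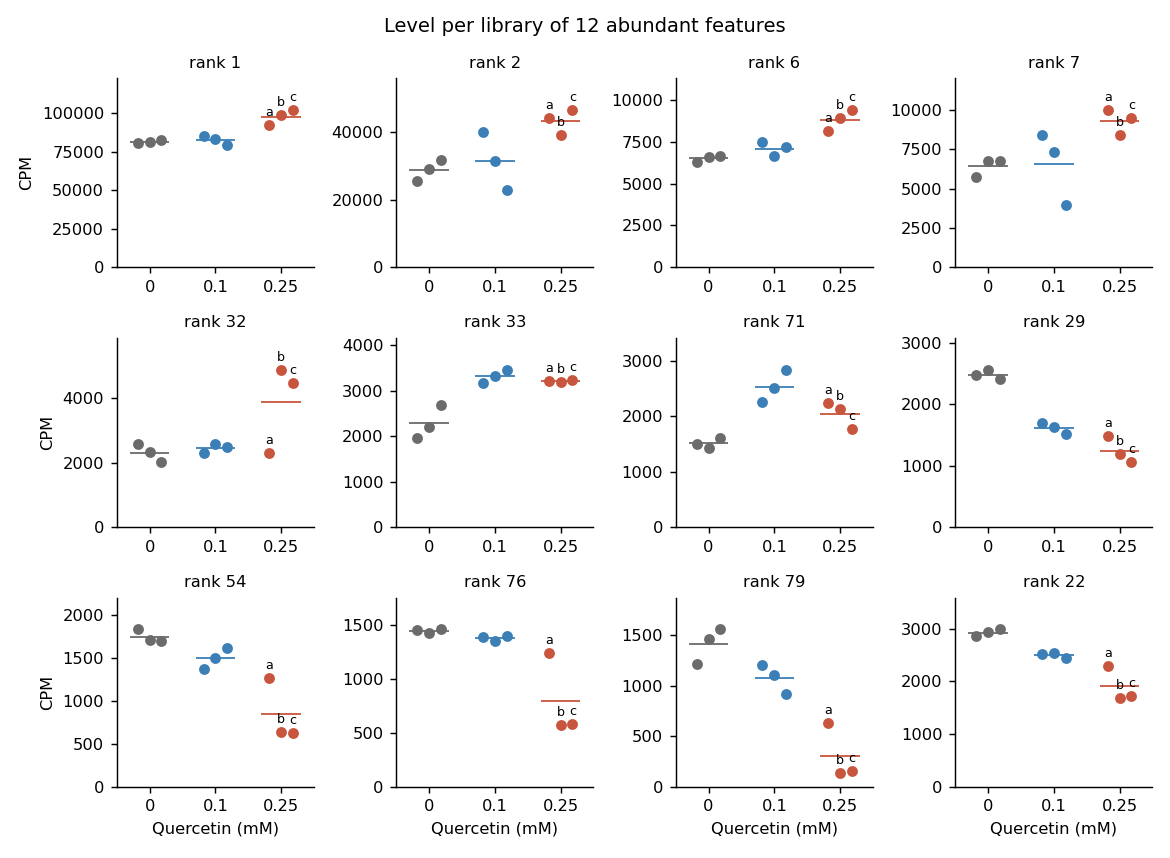
Level in CPM (vertical axis, from 0, scaled per panel) of 12 features in each library against the quercetin dose, with lines at the diet means and letters for libraries a, b and c. Ranks 1, 2 and 6 were above control in all 0.25 mM libraries, and ranks 32, 54 and 76 differed mainly in b and c. Ranks 22, 29, 33, 54, 71, 76 and 79 did not overlap control at 0.1 mM either.

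At 0.1 mM, 0 of the 100 features were called against control (edgeR quasi-likelihood test), where 0.0695% of all features were. At an unadjusted p under 0.05 there were 7 features, against 9.01% of all features. DESeq2 called 4 of the 100, 3 higher and 1 lower, and limma-voom 0, beside 1.3% and 0% of all features. With only the 6 libraries of control and 0.1 mM in the fit the count was 2, beside 0.335% of all features. It was also 2, beside 0.966%, without library a of the other diet, which enters through the shared spread. The log2 fold changes ran from -0.61 to 0.74 with a median of -0.03, beside a median of -0.00457 over all features. For 85 of the 100 the 95% interval excluded a 1.5-fold change, and for 99 a 2-fold change, beside 69.9% and 90.5% of all features. A 1.2-fold change was excluded for 32, beside 22%. Past 1.5-fold or 2-fold 0.0608% and 0.0261% of all features were called. Without overlap in CPM, 10 of the 100 were higher and 23 lower than control, beside 9.57% and 13.9% of all features. After TMM scaling, 39 had a log2 fold change above 0 and 61 below, beside 5622 and 5886 of all features.

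At 0.1 mM, ranks 71 and 33 had the smallest p-values among the features with a higher value than control, and ranks 29 and 88 among those with a lower one. Rank 71, GB46587-RA, had 1505, 1423 and 1616 CPM in control, 2254, 2507 and 2845 CPM at 0.1 mM and 2249, 2138 and 1765 CPM at 0.25 mM. Every quercetin library was above every control, and the 0.1 mM libraries were above those of 0.25 mM. The log2 fold change was 0.74 with a 95% interval of 0.5 to 0.99 at 0.1 mM (edgeR, adjusted p = 0.059). The adjusted p ran up to 0.393 with a library left out and was under 0.05 without library a, with upper-quartile factors, with no filter and in DESeq2. It was also under 0.05 with only the 6 libraries of control and 0.1 mM, with or without the replicate block. At 0.25 mM this feature rose by 0.51 ± 0.109 (edgeR, adjusted p = 0.0117).

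Rank 33 had 3179, 3323 and 3467 CPM at 0.1 mM, all above its 3 controls, with a log2 fold change of 0.55 (95% interval 0.29 to 0.8; edgeR, adjusted p = 0.161), beside 0.57 at 0.25 mM. Rank 29 had a log2 fold change of -0.61 at 0.1 mM (-0.89 to -0.33; edgeR, adjusted p = 0.157), beside -0.92 at 0.25 mM. Rank 88, GB42780-RA, had 1326, 1303 and 1201 CPM in control and 1049, 1195 and 1182 CPM at 0.1 mM, with a log2 fold change of -0.16 (-0.32 to 0.01; edgeR, adjusted p = 0.571). The doses share their 3 control libraries, so these pairs of values are not independent of each other.

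The 0.1 mM replicates were far apart for some of the most abundant features. Of the 10 features with the largest coefficient of variation at 0.1 mM, 7 had replicate 1 highest and replicate 3 lowest, namely ranks 7, 15, 73, 2, 9, 34 and 58. Ranks 92, 42 and 86, also among the 10, had replicate 1 lowest. Replicate 3 of 0.1 mM was the lowest of all 9 libraries for 9 of the 100 features and the highest for 13. Over all features these shares were 2.44% and 15.6%. Rank 7 had 8432, 7312 and 3977 CPM in replicates 1, 2 and 3, a coefficient of variation of 35.2%, against 9.02% in control and 8.88% at 0.25 mM. Replicate 3 was thus below all controls of rank 7, at 5747, 6746 and 6753 CPM, and replicate 1 above them. The library 0.1 mM replicate 3 also had the lowest share of counts in the 100 features of all 9 libraries, at 33%.

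Between the doses no control library enters, so this comparison is independent of how the features were chosen, apart from the shared spread and scaling. None of the 100 was called (edgeR quasi-likelihood test, smallest adjusted p = 0.0774), and 0% of all features were. At an unadjusted p under 0.05 there were 34 of the 100, beside 34.1% of all features. DESeq2 called 21, 13 higher and 8 lower, beside 21% of all features, and limma-voom 0, beside 0%. Without scaling factors edgeR called 9, 2 higher and 7 lower, beside 11.9% of all features. Without library a, 51 of the 100 were called, 17 higher and 34 lower at 0.25 mM, where 46.3% of all features were. Without any other single library the count was 0 (edgeR, 16 to 32 at an unadjusted p under 0.05). For 75 of the 100 the 95% interval excluded a 1.5-fold difference and for 93 a 2-fold difference, beside 55.9% and 84.6% of all features. Without overlap in CPM, which carries no TMM factors, 8 were higher and 31 lower at 0.25 mM, beside 5.6% and 28.6%. After scaling, 46 had a log2 difference above 0 and 54 below, beside 5738 and 5770 of all features.

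Between the doses, ranks 6 and 59 had the smallest p-values among the features with a higher value at 0.25 mM, and ranks 72 and 79 among those with a lower one. Rank 6 differed by 0.39 on the log2 scale (95% interval 0.18 to 0.59; edgeR, adjusted p = 0.0774). Rank 59, GB48497-RA, had 1865, 1686 and 1446 CPM at 0.1 mM and 2003, 2198 and 2327 CPM at 0.25 mM, a difference of 0.45 (0.19 to 0.72; edgeR, adjusted p = 0.0774). Rank 72, GB55302-RA, had 1524, 1584 and 1685 CPM at 0.1 mM and 1281, 1224 and 1228 CPM at 0.25 mM, a difference of -0.29 (-0.46 to -0.12; edgeR, adjusted p = 0.0774). In both, the libraries of the 2 doses did not overlap. Rank 79 differed by -1.73 (-2.88 to -0.57; edgeR, adjusted p = 0.0838).

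**Figure D5:**
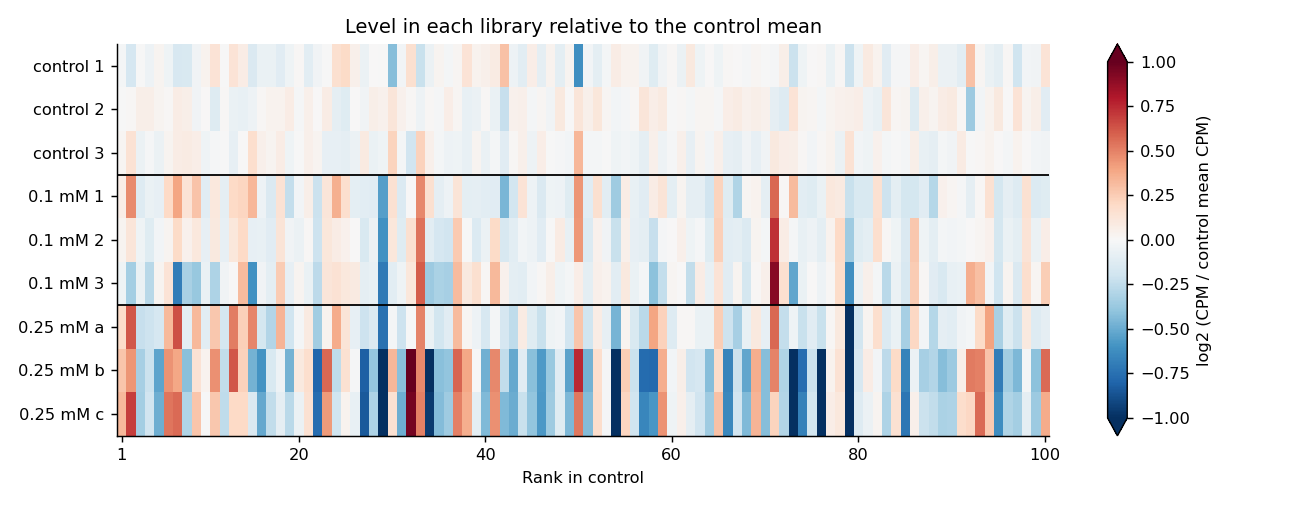
Level of each of the 100 features (columns, by rank in control) in each of the 9 libraries (rows), as log2 of CPM over the control mean, with colours capped at -1 and 1. Libraries b and c of 0.25 mM show the strongest colours, library a is paler in most columns, and rank 71 is high and rank 29 low in all quercetin libraries.

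Most of the 100 stayed among the most abundant on every diet. Of the 100 features, 94 were also among the 100 most abundant at 0.1 mM and 86 at 0.25 mM. In single control libraries the number was 95, 97 and 98, in those of 0.1 mM 92, 95 and 90, and in libraries a, b and c 92, 81 and 84. The control libraries themselves chose the 100, which raises their numbers, so they are no independent reference for the other diets. Ranks 1 and 2 kept their places at both doses. The 14 features that left the list at 0.25 mM lay between control ranks 54 and 99. Of these, 7 were called as lower, beside 17 of the 100 and 18.5% of all features. They were picked by a lower place at 0.25 mM, so no direction can be read from this count. Rank 79 dropped farthest, to place 485 at 0.25 mM.

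The 14 features that entered at 0.25 mM came from control ranks down to 156. Of these, 10 rose and none fell (edgeR, adjusted p under 0.05), beside 17.1% and 18.5% of all features. The group was picked by its high level at 0.25 mM, so no direction can be read from this count. The one that came farthest up went from place 134 in control to place 43, from 943 ± 115 CPM in control to 1199 ± 127 at 0.1 mM and 1826 ± 491 at 0.25 mM (SD, n = 3). Libraries b and c held 2273 and 1904 CPM of it and library a 1301 CPM, above the highest control at 1055 CPM.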

How the data were processed

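The values are whole-number read counts for each feature, which the authors deposited without normalisation in 1 table with a column for each library. Per the submitters' processing notes, CASAVA 1.8, HTSeq and edgeR were used, without roles. Aligner, genome build, annotation and strandedness: not given in the sources used here. Reads of overlapping, antisense or near-identical features therefore cannot be told apart. Diets were read from the column headings, and no column was left unused. The 5 bookkeeping lines (on average 13.6% of reads in control fell on no feature, 3.55% were ambiguous and 17.3% not aligned) stayed out of library sizes.

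The test was that of edgeR 4.0.16 (R 4.3.3): filterByExpr (11508 of 15314 features kept), TMM factors, and a quasi-likelihood fit over the 9 libraries with a coefficient for each diet (6 residual degrees of freedom). Benjamini-Hochberg adjustment ran over all features kept, and adjusted p under 0.05 was called. CPM values are not scaled by TMM, fold changes are. Shares were compared by exact two-sided permutation tests. The test was tried on simulated counts with known changes. The rule for named features took the 10 most abundant, the 10 largest rises and falls among called ones and, where none was called, the 2 smallest p in each direction. Other ranks are given for a stated reason (a call kept in every omission, the smallest rise, the widest replicates, consecutive identifiers) and were picked after their values were seen. As the identifiers have no names, an identifier is printed for at most 2 features per direction in a comparison. Those are the largest called changes without overlap between diets or, with none called, the smallest p. The lists of gene products that had been drawn up could not be evaluated. The features, lists and tests were chosen with earlier results of these data known. Alternatives were other factors, filters, thresholds, DESeq2 1.42.0, limma-voom (limma 3.58.1), other rankings, the replicate number as a block, and each library left out in turn.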

Additional observations from a re-analysis of the deposited data

Results flagged for a closer look

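Reads that did not align lie outside the comparisons above. They made up 17.9% ± 0.526 of all reads at 0.25 mM (SD, n = 3) and 17.3% ± 0.37 in control, so the 0.25 mM mean was above the top control value of 17.7%. The diets overlapped (exact permutation over libraries, two-sided, p = 0.2, with 3 in each). The part of unaligned reads in the share of counts on the 100 features was not tested. Reads on no feature were 12.4% ± 0.425 at 0.25 mM and 13.6% ± 0.354 in control. Ambiguous reads were 3.14% ± 0.185 and 3.55% ± 0.0299, and reads on features 66.6% ± 0.143 and 65.6% ± 0.0243. In each of these classes the 0.25 mM and control libraries did not overlap, and their part was not tested either. As a percentage of all reads in the table, unaligned ones included, the 100 features took 24.6% ± 0.396 at 0.25 mM and 22.7% ± 0.393 in control, again without overlap (exact permutation test, p = 0.1, the smallest possible). Groups of 3 libraries are too small to test single libraries as outliers.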

How the results depend on the processing

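The joint omission of libraries b and c was chosen after seeing the data. Of the 36 calls at 0.25 mM, each other scaling, filter and tool kept 32 to 36. The count moved to 4 at a threshold of 0.01 (6.27% of all features) and to 20 with only the 6 libraries compared (20.2%). With 1 library left out it was between 8 and 66 (9.61% to 56%). Sets of other sizes gave 20 of the 50 and 72 of the 200 most abundant features, beside 35.6% of all features. As these sets differ in size, their counts cannot be set directly against the 36 of 100. At 0.1 mM the count of 0 became 1 with upper-quartile factors, with no filter, at a threshold of 0.1 and with the replicate block, 4 with DESeq2, 2 with only the 6 libraries, 2 without b and c, and 0 to 2 with 1 library left out, where at most 1.3% of all features were called under any of these. Between the doses the count of 0 became 9 with no factors, 21 with DESeq2 and 18 at a threshold of 0.1, beside 11.9%, 21% and 21.1% of all features, and 0 to 51 with 1 library left out.

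Replicate numbers are shared by the columns of control and 0.1 mM alone. Same-numbered libraries did not deviate together over all features (r = -0.08, 0.1 and -0.12). Pairs with unlike numbers ran from r = -0.14 to 0.23. With 3 libraries per diet, values of this size cannot settle whether the numbers pair the samples. For 0.1 mM against control, the fit with the replicate block called 1 of the 100 features, beside 0.203% of all features.

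The share of counts at 0.25 mM minus control was 2.98 points for the 50 most abundant, 0.719 without rank 1, and 2.01 to 2.72 with 1 library left out. At 0.1 mM minus control it changed sign without control replicate 1 (-0.105) and without 0.1 mM replicate 1 (-0.558), over a range of -0.558 to 1.13. Between the doses it was 0.59 without rank 1 and 1.21 to 2.9 with 1 library left out. Of 588 values of the 28 named features at 0.25 mM, 461 kept direction and call, 108 lost the call, 16 gained one and 3, none of them called, changed sign. The cause of these shifts was not tested. With at least 5522 reads per feature and library, the spread between 3 libraries, not depth, sets the limit.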

Other observations

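Some of the 100 features carry identifiers with consecutive numbers, a pattern looked for after the values had been seen. There were 3 such runs with 7 features in all. The longest held ranks 7, 1 and 9, in the order of their numbers, so the most abundant feature sits between a pair of others from the top 10. At 0.25 mM their log2 fold changes were 0.61, 0.34 and 0.32, of which that of rank 1 was called. Ranks 23 and 41 formed a second run and both rose, by 0.44 and 0.4 on the log2 scale (edgeR, adjusted p = 0.0247 and 0.0466). In both, library a lay within the control range, and rank 23 lost its call in 5 of the 9 omissions of a library (adjusted p up to 0.0826). Ranks 91 and 68 formed the third, with 0.14 and -0.26, and neither was called. Whether consecutive numbers stand for neighbouring or similar genes cannot be read from the table, and reads could be split between near-identical copies.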
